A study of Mus musculus with 14 samples.

Results

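Klf5 is the transcript that the siRNA of the study targets, and its own level was followed here through 3 days of muscle differentiation. It was found as the row whose gene symbol is Klf5, which is 1 of the 24016 transcripts in the deposited expression table, and all 8 RNA libraries were used. The cells were C2C12, a line of mouse muscle precursor cells that join into multinucleate myotubes once the growth medium is replaced by differentiation medium with 2% horse serum. They were transfected with control siRNA (siCtrl) or with siKlf5, a commercial pool of siRNAs against Klf5, by the reagent RNAiMAX, and poly(A) RNA was sequenced on days 0, 1, 2 and 3. The groups were thus siCtrl and siKlf5 on each of 4 days, with 1 library per siRNA and day. All 8 groups shared the cell line and the transfection reagent. The study describes day 0 as before differentiation, so a step from day 0 to a later day includes the change of medium. The knockdown was transient, it came from 1 siRNA pool in 1 line, and no library had a replicate. The time between transfection and day 0 was not given for these libraries in the sources used here. These are bulk samples, so fewer cells that contain Klf5 RNA and less of it per cell cannot be told apart.

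Klf5 encodes a Krüppel-like factor, a transcription factor that binds GC-rich and CACCC sequences through zinc fingers at its C-terminal end. It is known for the proliferation of epithelial cells, for smooth muscle cells in vascular remodelling and for the early steps of adipocyte differentiation. In skeletal muscle the study set out to ask what it does when myoblasts differentiate. Its activity depends on protein modification and on partner proteins as well as on how much RNA is present, so the level of the transcript is only 1 part of its control.

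The table lists Klf5 as NM_009769 on chromosome 14 of mm9, at chr14:99697910-99712628 on the plus strand, with an exon length of 1719 bases. The annotation used here gave it 4 exons, of 532, 874, 60 and 259 bases within those ends, and a coding sequence of 1338 bases. The bases that encode the 3 zinc fingers were read from that annotation's transcript, because they are the part of Klf5 that other family members resemble most and so the part where reads could be assigned to the wrong gene. They run from the first zinc-binding cysteine codon to the last histidine codon and lie in the coding parts of exons 2, 3 and 4, at chr14:99701461-99701473, chr14:99702637-99702696 and chr14:99712370-99712539. Klf12 is shown as the family member with the closest finger bases of the 16 compared, at chr14:100299301-100299373 and chr14:100274364-100274533 on the minus strand, in exons 6 and 7. Klf4 is shown as the Klf gene with the highest mean level in these cells, at chr4:55542590-55542662 and chr4:55541003-55541172 on the minus strand, in exons 4 and 5. In the Klf5 line capitals mark the 12 codons of the cysteines and histidines that hold zinc, and in the others they mark bases that differ from Klf5.
Klf5: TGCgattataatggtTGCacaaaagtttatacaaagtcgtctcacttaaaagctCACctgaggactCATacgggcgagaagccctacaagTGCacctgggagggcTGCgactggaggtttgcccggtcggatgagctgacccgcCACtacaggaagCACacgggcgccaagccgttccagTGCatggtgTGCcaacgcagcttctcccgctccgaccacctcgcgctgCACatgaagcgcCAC
Klf12: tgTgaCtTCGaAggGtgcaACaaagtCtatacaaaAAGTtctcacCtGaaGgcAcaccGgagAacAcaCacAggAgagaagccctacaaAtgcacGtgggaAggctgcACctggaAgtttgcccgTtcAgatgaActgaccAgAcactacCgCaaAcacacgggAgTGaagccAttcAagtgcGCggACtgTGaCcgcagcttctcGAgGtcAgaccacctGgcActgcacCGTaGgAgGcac
Klf4: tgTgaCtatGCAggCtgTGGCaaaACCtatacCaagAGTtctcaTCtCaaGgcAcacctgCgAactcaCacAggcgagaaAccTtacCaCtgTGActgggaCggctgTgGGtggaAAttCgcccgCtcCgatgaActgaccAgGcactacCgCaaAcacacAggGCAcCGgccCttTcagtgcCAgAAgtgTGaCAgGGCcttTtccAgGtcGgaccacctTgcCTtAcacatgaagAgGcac
Over these 243 bases Klf12 was identical to Klf5 at 181 positions (74.5%) and Klf4 at 166 (68.3%). By encoded residues Klf3 and Klf7, at 86.4% identity each, were closer to Klf5 than Klf12, at 84.0%. The longest run without a difference was 14 bases in Klf12 and 9 in Klf4, and over all 16 members it was longest in Klf9, at 24 bases.

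Closer copies of Klf5 lie elsewhere in the genome and contain no gene of the annotation. A copy at chr7:115413047-115413950 aligned to bases 809 to 1720 of the joined exons with 91.7% identity and without the introns. A second copy at chr15:45794078-45794994 aligned to bases 531 to 1461 with 87.4% identity. Exact runs of at least 31 bases that Klf5 shares with other places covered 361 of the 1725 bases of these exons (20.9%), a length that differs from the listed one by 6 bases, and the longest was 53 bases. Reads from such runs could be split between Klf5 and the copies, and the part this plays in the values was not tested. No row of the table overlapped either copy. The nearest gene of the table, Pibf1, ended 44.2 kb before Klf5, so no listed neighbour shared its reads although both strands were counted.

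Levels are the deposited FPKM values, which the authors scaled to a total of 10000000 per library and which are larger than the usual FPKM. The reads behind each value were recovered from it. Summed over the transcripts of the table they came to between 7850497 (siCtrl, day 1) and 20301506 (siCtrl, day 2) per library. Counts of exactly 6 reads were 2.83 to 10.0 times as frequent in a library as counts of exactly 5, so reads were not taken as independent and 95% exact (Clopper-Pearson) intervals of a ratio were computed on reads divided by 6. They cover counting error only. The 5 myoblast markers (Myod1, Myf5, Des, Cdh15 and Chrna1) summed to between 3343 and 5456 FPKM over the 8 libraries. They are not limited to undifferentiated cells. From day 0 to day 3 Chrna1 rose from 634 to 1263 in siCtrl and from 594 to 1537 in siKlf5. The 6 myotube markers (Myog, Myh3, Acta1, Ckm, Tnnt3 and Mybph) summed to between 988 and 16964, lowest on day 0. The 4 endothelial markers summed to at most 5.36 and the 4 adipocyte markers to at most 3.81, with Plin1 at 0 in every library. Epithelial cells are where Klf5 is best known. The 6 epithelial markers summed to between 85.1 and 365 in siCtrl and between 58.5 and 227 in siKlf5, most of it Krt19, while Epcam and Krt18 were at 0 in all 8 libraries. The 4 leukocyte markers summed to between 24.3 and 76.6 and the 4 smooth muscle markers to between 278 and 506, the latter mostly Smtn.

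In control cells Klf5 rose on every day of differentiation. Its FPKM on days 0, 1, 2 and 3 was 223.8, 381.1, 614.4 and 933.1, from 757, 840, 3548 and 3288 reads. Each level was higher than the one before it by more than the counting interval. The step was 1.70-fold from day 0 to day 1 (95% interval 1.33 to 2.19), 1.61-fold from day 1 to day 2 (1.34 to 1.95) and 1.52-fold from day 2 to day 3 (1.35 to 1.71). The steps thus had overlapping intervals as folds, while the amount added grew from 157 to 233 and to 319 FPKM. From day 0 to day 3 the level rose 4.17-fold (3.43 to 5.11). Of 14312 transcripts with a mean of at least 1 FPKM over the 8 libraries, called expressed here, 15.5% rose at least 2-fold over the same days and 9.80% were higher on each day than on the day before. Klf5 had the 1184th largest of these rises, and it moved from 78.4% of expressed transcripts lying below it on day 0 to 97.5% on day 3.

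In Klf5 knockdown cells the level was lower on every day and had a different shape. The corresponding FPKM values were 35.1, 159.6, 192.1 and 211.4, from 108, 366, 642 and 651 reads. The highest knockdown level, on day 3, lay below the lowest control level, on day 0, by less than the counting interval. The log2 ratio of that control level to that knockdown level was 0.08 (95% interval -0.30 to 0.47). The share of all transcripts with every knockdown level below every control level was not computed. Most of the rise came in the first day, which added 125 of the 176 FPKM gained by day 3 and was 4.53-fold (95% interval 2.65 to 8.17), against 1.20-fold from day 1 to day 2 (0.871 to 1.68) and a log2 change of 0.14 from day 2 to day 3 (-0.27 to 0.53). The intervals of the later steps include no change. Between day 1 and day 3 the level rose 1.32-fold (0.954 to 1.84) in knockdown cells and 2.45-fold (2.03 to 2.97) in control cells, a span chosen after the values were seen. Of the expressed transcripts, 11.9% rose at least 2-fold from day 0 to day 1 in knockdown cells, 14.9% did so from day 0 to day 3, and 9.06% were higher on each day than on the day before, as Klf5 was.

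**Figure D1:**
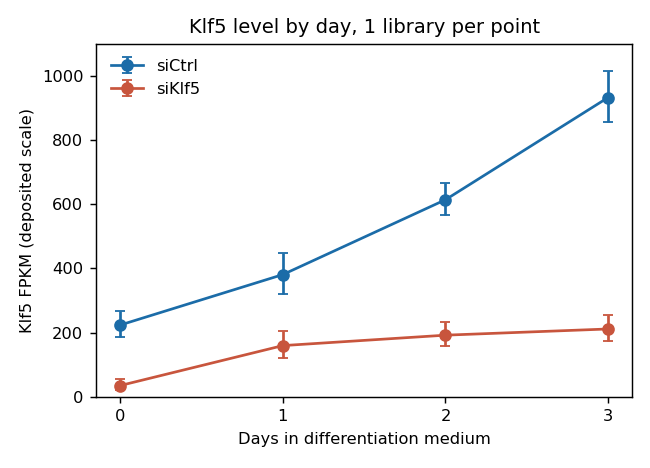
Klf5 FPKM (vertical axis, deposited scale, from 0) against days in differentiation medium (horizontal axis) in siCtrl and siKlf5 cells, 1 library per point, with bars for the 95% exact Poisson interval on reads divided by 6, which is counting error only. The siCtrl line climbs from 223.8 to 933.1, while the siKlf5 line goes from 35.1 to 159.6 in the first day and ends at 211.4.

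Set against the control of the same day, the knockdown was deeper on days 0 and 3 than on day 1. Knockdown cells held 15.7% of the control level on day 0 (95% interval 9.02 to 25.9), 41.9% on day 1 (30.5 to 57.0), 31.3% on day 2 (25.2 to 38.5) and 22.7% on day 3 (18.2 to 27.8). The intervals of days 0 and 3 did not overlap that of day 1. All other pairs of days had overlapping intervals, so the order of days 0, 2 and 3, and of days 1 and 2, is not set by these counts. On the log2 scale the ratios of siKlf5 to siCtrl were -2.67, -1.25, -1.68 and -2.14. Of the 14312 expressed transcripts, Klf5 had the 448th, 740th, 668th and 530th lowest ratio on days 0, 1, 2 and 3. Of the 11591 with a mean of at least 10 FPKM it had the 80th, 223rd, 118th and 95th lowest. On day 1 its ratio lay just above the 5th percentile of the expressed transcripts, -1.29. The share that remained became smaller after day 1 although the knockdown level itself did not fall, as the control level rose over the same days. The missing amount, control minus knockdown, was 189, 221, 422 and 722 FPKM on days 0, 1, 2 and 3.

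Across the 4 days Klf5 was lower by a mean log2 ratio of -1.94 ± 0.61 (SD over 4 days), and lower on 4 of 4 days. In limma on log2(FPKM + 0.1), with siRNA and day as factors over all 8 libraries, the siRNA effect on Klf5 was -1.94 with a standard error of 0.20 and an adjusted p of 0.0244 (Benjamini-Hochberg over 14312 transcripts). The days stand in for replicates in that fit, so the p measures how steady the ratio was over days and not how it would vary between cultures. Of the 14312 transcripts tested, 8 were called lower in knockdown cells (0.0559%), Klf5 among them, and 1 was called higher. Among the 8, Mir7052 had at most 11 reads in a library and 0 in every siKlf5 library. The call of Klf5 was not stable. Its adjusted p was 0.646 in limma without the mean-variance trend and 0.561 without the filter on low values. It was between 0.296 and 0.693 in limma when a day was left out. An exact sign-flip permutation test on the 4 day-wise ratios gave a two-sided p of 0.125, which is the smallest that 4 days allow.

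**Figure D2:**
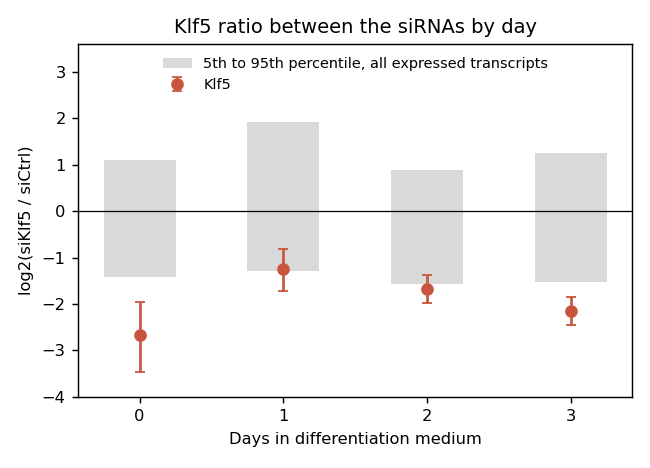
Log2 ratio of siKlf5 to siCtrl (vertical axis) for Klf5 on each day in differentiation medium (horizontal axis), 1 library per siRNA and day, with bars for the 95% exact interval of counting error and grey boxes for the 5th to 95th percentile of all 14312 expressed transcripts. Klf5 is lowest on day 0 at -2.67, reaches -1.25 on day 1, at the edge of the grey box, and is at -2.14 on day 3.

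Ordered by level, the 8 libraries ran from siKlf5 on days 0, 1, 2 and 3 to siCtrl on days 0, 1, 2 and 3. Some neighbours in this order could not be told apart. The intervals included no difference between siKlf5 on days 1 and 2, between siKlf5 on days 2 and 3, and between siKlf5 on day 3 and siCtrl on day 0. The other neighbours differed by more than their counting intervals. Knockdown cells held 71.3% of the control day 0 level on day 1 (log2 ratio -0.49, 95% interval -0.95 to -0.03), 85.8% on day 2 (-0.22, -0.60 to 0.16) and 94.5% on day 3 (-0.08, -0.47 to 0.30). After 3 days the knockdown cells had thus come back to about the level at which control cells began, and the interval of that ratio allows a difference in either direction.

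Straight lines over days were fitted to log2 values in both groups with limma, siRNA by day, over all 8 libraries. The slope of Klf5 was 0.69 per day in siCtrl and 0.80 per day in siKlf5, each with a standard error of 0.18. Their adjusted p-values were 0.0821 and 0.0720, so neither passed 0.05. In that limma fit 1.82% of the transcripts tested had an upward slope called in siCtrl and 0.356% in siKlf5, at an adjusted p under 0.05. The difference of the slopes, siKlf5 minus siCtrl, was 0.12 with a standard error of 0.26 and an adjusted p of 0.99994 in limma. No transcript was called for a slope difference, with 127 higher and 189 lower at an unadjusted p under 0.05. The knockdown course is not close to a line, with most of its rise between days 0 and 1. Without day 0 the slopes were 0.65 in siCtrl and 0.20 in siKlf5, and the difference turned to -0.44 with a standard error of 0.10 and an adjusted p of 0.849 in limma.

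The limit of 3 reads kept per position can hold down the highest values. Klf5 had between 0.0628 reads per exon base (siKlf5, day 0) and 2.06 (siCtrl, day 2), so the control libraries of days 2 and 3, with 2.06 and 1.91 reads per base, came closest to the limit. How much this lowered their values was not tested.

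Of 11591 transcripts with a mean of at least 10 FPKM, 16 (0.138%) were more than 2-fold lower in knockdown cells on all 4 days, and Klf5 was 1 of them. With a mean of at least 1 in place of 10 the number was 41. By mean log2 ratio it was in 11th place of the 16. Of the 16, 9 were above 0 in every library, and among those Klf5 was in 4th place after Als2cl, Myh7 and Ch25h. Als2cl, which encodes a protein related to alsin, was at 6.83, 3.24, 43.4 and 73.9 FPKM in siCtrl and at 1.44, 0.593, 3.25 and 6.51 in siKlf5. Myh7, the slow myosin heavy chain, was at 7.86, 20.6, 106 and 311 in siCtrl and at 2.88, 5.11, 15.7 and 55.5 in siKlf5. Ch25h, cholesterol 25-hydroxylase, was at 20.7, 8.67, 23.2 and 21.0 in siCtrl and at 8.29, 1.67, 2.67 and 6.62 in siKlf5. In their lowest library Als2cl, Myh7 and Ch25h rested on 4, 31 and 3 reads, and Klf5 on 108. The other 7 with larger mean ratios were Mir7052, Snord15a, Mir365-2, Jakmip1, Mir199a-2, Tigit and 2210011C24Rik, each at 0 in at least 1 knockdown library. In the opposite direction 4 transcripts were more than 2-fold higher on all 4 days, namely Ckmt2, a mitochondrial creatine kinase, Snora17, Mybpc1, a slow myosin-binding protein, and Myh4, a fast myosin heavy chain. Of these only Myh4 was above 0 in every library. Reads on days 0, 1, 2 and 3 in siCtrl were 0, 0, 69 and 40 for Ckmt2. They were 1, 0, 3 and 3 for Snora17 and 0, 49, 285 and 521 for Mybpc1. Where siCtrl was at 0, the size of the ratio rests on the pseudocount of 0.1. Myh4 had 7.97, 22.6, 71.2 and 228 FPKM in siCtrl and 25.6, 53.0, 231 and 598 in siKlf5, and was the 1 transcript called higher in the limma fit (adjusted p 0.0185).

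Within its family Klf5 changed place. Among the 17 Klf genes it was in 5th place in control cells on day 0, in 3rd place on day 1 and in 1st place on days 2 and 3, whereas in knockdown cells it was in 10th place on day 0 and in 5th place on the other days. The 3 other Klf genes with the highest means did not pass the test. On day 3 Klf4 was at 467 FPKM in siCtrl and 503 in siKlf5, Klf6 at 349 and 360, and Klf2 at 328 and 243, and their adjusted p for the siRNA in limma was 0.804, 0.803 and 0.877. In the whole list of 26 Klf and Sp genes, 18 were tested and Klf5 itself was the 1 called lower, with none called higher. Of all transcripts tested 0.0559% were called lower. Klf5 is the target of the siRNA, and with so few calls the absence of others is no result about the family. The list's median effect was -0.11, against 0.01 over all transcripts tested.

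**Figure D3:**
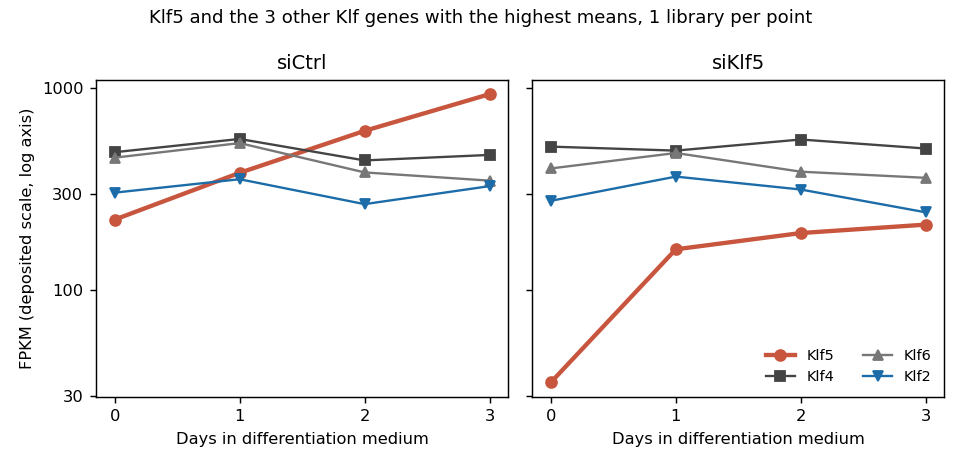
FPKM on a log axis (vertical, deposited scale) against days in differentiation medium (horizontal) for Klf5 and the 3 other Klf genes with the highest means, siCtrl on the left and siKlf5 on the right, 1 library per point. Klf5 passes the others by day 2 in siCtrl and stays below them on every day in siKlf5, ending at 211.4.

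Genes that are known to act on Klf5 were taken from lists written from general knowledge and the study. Of 11 kinases upstream of it, the p38 and ERK pathways with their activators, 10 were tested and none was called lower or higher. Their median effect was -0.07, and Mapk13, a p38 kinase, was at 0 in every library. Of 8 transcription factors upstream of it, all were tested and none was called, with a median effect of -0.07. Of 18 genes for protein modifiers and cofactors of Klf5, all were tested and none was called, with a median of 0.01. No member of these lists was past 2-fold between the siRNAs in the same direction on at least 3 of the 4 days, where 2.01% of all transcripts tested were past it lower and 1.19% higher. The lists are small, and the fit across days called only 9 transcripts in all.

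Genes known as Klf5 targets from earlier work, mostly in other tissues, did not pass the test either. Of 18 such genes 15 were tested and none was called, beside 0.0559% called lower of all transcripts. Their median effect was -0.28 against 0.01 over all transcripts. Past 2-fold lower on at least 3 days were Fgfbp1, which encodes a carrier of fibroblast growth factors, and Ucp3, a mitochondrial uncoupling protein of muscle, which are 2 of the 15 tested beside 2.01% of all transcripts. Fgfbp1 was at 4.68, 4.57, 16.5 and 23.3 FPKM in siCtrl and at 0.937, 0, 0 and 0 in siKlf5. Its reads were 11, 7, 66 and 57 in siCtrl and 2, 0, 0 and 0 in siKlf5. Its level in control cells was about the same on days 0 and 1 and higher on days 2 and 3, while in knockdown cells it had reads on day 0 alone. Ucp3 was at 0, 4.16, 10.4 and 18.4 in siCtrl and at 0, 0, 0 and 2.06 in siKlf5, from at most 92 reads. Neither passed limma (adjusted p 0.201 for Fgfbp1 and 0.449 for Ucp3). The epithelial marker Cdh1, the gene of E-cadherin, was past 2-fold lower on days 0, 2 and 3 and not on day 1, with 4.63, 9.76, 24.9 and 38.1 in siCtrl and 1.65, 10.2, 3.98 and 14.9 in siKlf5 (adjusted p 0.463).

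The 8 muscle genes that the study ties to Klf5 were chosen in part on these libraries and are therefore not independent evidence of a direction. Of these, 1 was called lower and none higher, beside 0.0559% called lower of all transcripts, and the median effect was -0.47. The gene called was Myl4, an embryonic and atrial myosin light chain, which had 59.5, 616, 1685 and 2390 FPKM in siCtrl and 28.2, 298, 929 and 1087 in siKlf5 (effect -1.03, standard error 0.08, adjusted p 0.00659 in limma). No transcript, and so not Myl4 either, was called lower without the filter, without the trend or with any 1 day left out. Mybph, a myosin-binding protein, had an effect of -0.79 (adjusted p 0.0868), Tead4, a muscle transcription factor, of -0.57 (adjusted p 0.172) and Myog, the gene of myogenin, of -0.46 (adjusted p 0.228). Myod1 and Myh3, the gene of embryonic myosin, had effects of -0.06 and 0.06.

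The transcripts whose course was most like that of Klf5 were sought by Pearson's r of log2(FPKM + 0.1) over the 8 libraries, among 11590 others with a mean of at least 10. This is a description over libraries that share days and siRNAs, and it rests on 8 points. The 10 highest were Npnt, Mafa, Baiap2l1, Dcaf12, Spryd3, Atp11b, Ccnt1, Spryd4, Tpd52l2 and Sorbs3, with r between 0.956 and 0.974, and 68 had r above 0.9. All 10 had lower values in siKlf5 than in siCtrl on each of the 4 days, and all 10 rose from day 0 to day 1 in knockdown cells. Both traits follow largely from choosing the 10 by likeness to Klf5 in these libraries, and are not separate evidence. In size the 10 differed from Klf5. Over the 8 libraries Klf5 spanned 4.73 on the log2 scale, and 9 of the 10 spanned less, down to 0.49. Npnt, which encodes the matrix protein nephronectin, was the most alike, at 588, 932, 1074 and 1333 FPKM in siCtrl and 368, 660, 677 and 651 in siKlf5. Mafa, a transcription factor of the Maf family, spanned 5.97, and it was the only 1 of the 10 that was more than 2-fold lower on all 4 days. It was at 19.8, 76.7, 87.0 and 201.4 in siCtrl and at 3.11, 23.6, 39.6 and 44.5 in siKlf5. Neither passed limma for the siRNA (adjusted p 0.0727 for Npnt and 0.0745 for Mafa). The 5 most opposite courses were those of Hoxa11os, Emc10, Gng5, Pde6d and Cars2, with r between -0.971 and -0.955. The order at the top depended on the measure, and 2 of the 10 were kept when Spearman's rho was used.

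**Figure D4:**
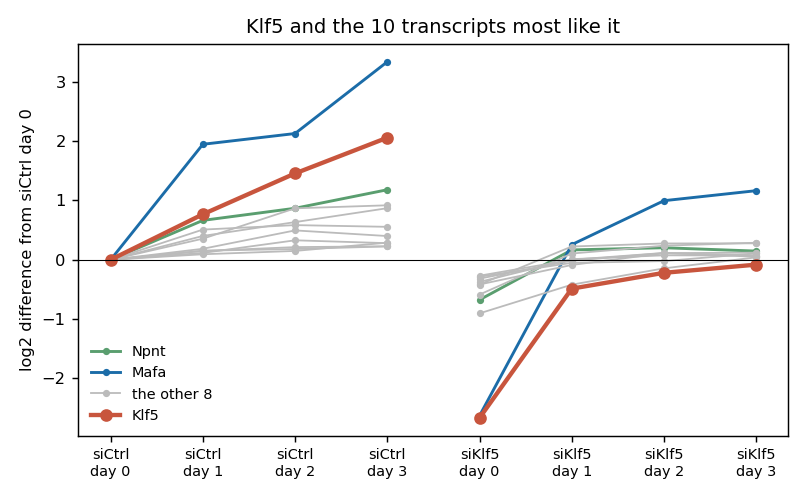
Log2 difference from siCtrl day 0 (vertical axis) in each of the 8 libraries (horizontal axis, 1 library per point) for Klf5, Npnt, Mafa and the other 8 transcripts with the highest Pearson r. Klf5 and Mafa span 4.73 and 5.97, whereas the rest stay closer to 0, higher in siCtrl than in siKlf5 on each day.

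No gene near Klf5 passed the test for the siRNA, as was so for nearly all transcripts. Within 1 Mb the table holds 5 other genes, Mzt1, Bora, Dis3 and Pibf1 upstream and Klf12 downstream. In control cells Bora, Dis3 and Klf12 were highest on day 0, when Klf5 was lowest there, and Mzt1 and Pibf1 were highest on day 2. Bora, a cofactor of mitotic kinases, was at 122, 37.3, 46.5 and 21.8 FPKM in siCtrl and at 116, 51.0, 48.8 and 38.5 in siKlf5. Pibf1, the nearest gene, was at 57.7, 46.6, 58.2 and 51.5 in siCtrl and at 43.0, 54.7, 53.3 and 58.0 in siKlf5. Mzt1, a gamma-tubulin complex gene, and Dis3, an exosome ribonuclease, had mean log2 ratios of -0.06 and -0.17 between the siRNAs. None of the 5 was called for the siRNA in limma, with adjusted p between 0.625 and 0.967. Of all transcripts tested 0.0559% were called lower and 1 transcript was called higher. With so few calls, none among 5 genes is no result about the neighbours. Klf12, the Klf gene with the closest finger bases and the next gene downstream, lay between 2.43 and 10.6 FPKM, below Klf5 in all 8 libraries.

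**Figure D5:**
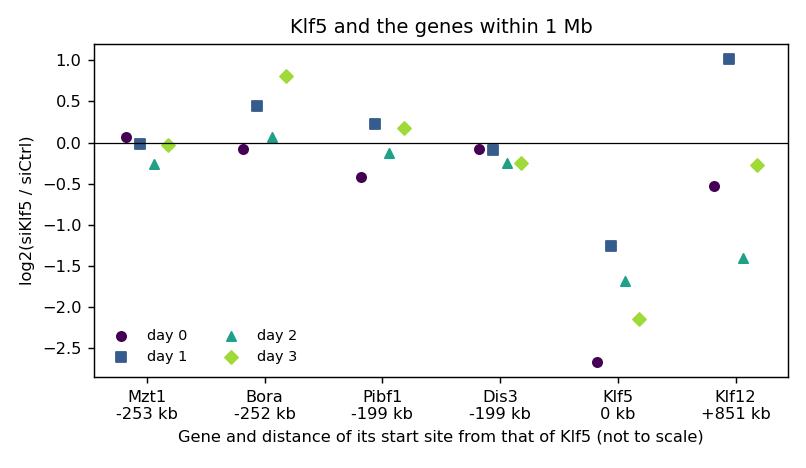
Log2 ratio of siKlf5 to siCtrl on each day (vertical axis) for Klf5 and the 5 other genes of the table within 1 Mb (horizontal axis, ordered by the distance of their start sites, not to scale), 1 pair of libraries per point. Klf5 lies between -2.67 and -1.25, while the points of Mzt1, Bora, Dis3 and Pibf1 lie between -0.42 and 0.81 and those of the low Klf12 between -1.41 and 1.01.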

How the data were processed

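RNA libraries from siCtrl and siKlf5 C2C12 cells on days 0, 1, 2 and 3 (1 per siRNA and day) were used. The 6 ChIP-seq samples were not analysed here. Groups followed the titles of the samples. According to the labels and file headers the authors selected poly(A) RNA, sequenced it from both ends, aligned it to mm9 with STAR and counted it with HOMER on exons of RefSeq genes, taking both strands and up to 3 reads per position, with 1 transcript per gene. The deposited FPKM values were scaled by the authors to a total of 10000000. The authors also deposited log2 columns, which were used in 1 alternative only. 1 log2 column names no day and was left out. DESeq2, named in the labels for normalizing counts, was applied to counts not analysed here.

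FPKM was converted back to reads with the exon length, and every value checked lay within 0.1 of a whole number. The total over the transcripts of the table was between 7850497 and 20301506 reads per library. In each library 6 reads were 2.83 to 10.0 times as frequent as 5, hence the units of 6 in the intervals. Ratios used a pseudocount of 0.1. limma 3.58.1 (R 4.3.3, mean-variance trend) was run on log2(FPKM + 0.1) of 14312 transcripts, with day as a factor or as a number. The fits were tested on simulated data. For the siRNA effect the simulated noise was capped at the median residual spread over transcripts. It was thus smaller than in these data for the noisier transcripts. Alternatives were pseudocounts of 0 and 1, other filters (no filter, or a mean of at least 5), upper-quartile and median-ratio scaling, no trend, no replicate block, recovered reads scaled to depth, the deposited log2 columns, single reads in the intervals and each day left out. Fingers, exons and copies were read from the mm9 genome and GENCODE annotation.

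Genes named were Klf5, the 10 most and 5 least like it, up to 10 lower and 5 higher past 2-fold on all 4 days, neighbours within 1 Mb, the 3 highest other Klf genes, and list members past 2-fold on at least 3 days or named by the study. Of the markers, Krt8 and Ptprc, and of the family Sp7, met that rule at mean values near or below 1 and are given by name only. Klf5, the lists and the rules were chosen with earlier results of these data known.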

Additional observations from a re-analysis of the deposited data

How the results depend on the processing

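All 4 day-wise ratios of Klf5 and its changes between days stayed within their counting intervals under the pseudocounts of 0 and 1, both scalings and, for days 0, 2 and 3, the deposited log2 columns. For day 1 no such value exists, since the siKlf5 log2 column names no day. The siRNA effect on Klf5 was called with a pseudocount of 1, a mean of at least 5, both scalings and recovered reads scaled to depth. It lost its call in limma at -1.94 without the filter on low values, without the mean-variance trend and without the replicate block (adjusted p 0.561, 0.646 and 0.99987). Leaving out a day gave effects between -2.16 and -1.69 with no call. With the days as a replicate block 8 transcripts were called lower and 1 higher, and without the block 1 and 0. Without the filter, without the trend and with any 1 day left out, 0 were called lower and 0 higher, while recovered reads gave 37 lower and 11 higher. The siKlf5 slope passed with recovered reads (0.81 per day, adjusted p 0.0459 in limma). The slope difference was between -0.44 (without day 0) and 0.50 (without day 3) when a day was left out. The number of transcripts more than 2-fold lower on all 4 days was 41 with a mean of at least 1 in place of 10. Of the 10 transcripts most like Klf5, 2 were kept with Spearman's rho, 6 with median-ratio scaling, and between 0 and 6 when a day was left out. Where each call was lost the cause was not tested. No condition had a replicate, and libraries of siCtrl on days 1 and 2 differed most in depth. Genes under about 10 FPKM rested on few reads, and so did short transcripts at higher values. Mir7052, for example, was at 51.2 FPKM in siCtrl on day 2 from 11 reads.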
